A study of Mus musculus with 12 samples.

Results

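Gas5, Snhg1, Snhg3, Snhg5, Snhg6, Snhg8 and Snhg12 are mouse genes whose spliced RNA is not known to encode a protein and whose introns carry small nucleolar RNAs (snoRNAs). These 7 genes were taken by symbol from the 24881 symbols of the deposited expression table, and all 7 passed the filter on low values. RNA-seq was carried out on R1 mouse embryonic stem cells (ESCs) that express the FUCCI cell cycle reporter and were sorted in G1 phase. WT and P53-/- ESCs were cultured in serum or in 2i, the medium with inhibitors of MEK and GSK3 that keeps ESCs in the ground state. Each combination of genotype and culture held 2 libraries, 8 in 4 groups, and the P53-/- cells came from CRISPR/Cas9 clones cut in an exon common to the Trp53 isoforms. The paper names 2 such clones for the RNA-seq, and the columns do not tell which clone is which library. P21-/- ESCs in 2i and a further pair of WT 2i samples (4 of the 12 samples) were not analysed here.

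A snoRNA guides chemical modification of ribosomal RNA: box C/D snoRNAs guide ribose methylation, and box H/ACA snoRNAs guide the change of uridine to pseudouridine. In vertebrates most of them are cut out of the introns of a host gene, so that a host transcript yields a snoRNA and a spliced RNA. Many host genes start transcription within a pyrimidine tract, the 5′TOP feature that they share with ribosomal protein genes. Their spliced RNAs often hold short open reading frames and are then degraded by nonsense-mediated decay (NMD) upon translation. Gas5 was named for its higher level in growth-arrested cells, and its spliced RNA can bind the glucocorticoid receptor.

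The genes are short and lie at 6 places of the genome, given here for GRCm38 with GENCODE M21. Gas5 lies on the plus strand at chr1:161034422-161038539 and holds 10 genes annotated as snoRNA, 1 of them under the microRNA symbol Mir5117. Snhg1, on the plus strand at chr19:8723475-8726443, holds 8. Snhg12, on the plus strand at chr4:132308623-132311024, holds 5. Snhg3, on the minus strand at chr4:132348014-132353686, holds 2, and 36989 bases separate it from Snhg12. Snhg5, on the minus strand at chr9:88521050-88522929, also holds 2. Snhg6, on the minus strand at chr1:9941959-9944118, and Snhg8, on the minus strand at chr3:123507552-123508404, hold 1 each. GENCODE lists Snord80 in Gas5 and Snora16a in Snhg12 each as nested genes of the same name, counted separately here. Of the 29 snoRNA genes, 9 carried 1 of 8 symbols found in the table, and none of those belonged to Snhg3 or Snhg5.

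Start sites were read for the pyrimidine tract that many host genes have. The RefSeq promoter table (GRCm38.p6) held 6 of the 7 genes, Snhg6 not among them. Each window below runs 5′ to 3′ from 40 bases before the start site, with 40 bases from the start onwards, and capitals mark the longest run of C and T within 20 bases of the start.
Snhg1, chr19:8723447-8723526, plus strand: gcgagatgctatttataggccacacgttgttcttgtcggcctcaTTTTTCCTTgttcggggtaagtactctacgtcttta
Gas5, chr1:161035126-161035205, plus strand: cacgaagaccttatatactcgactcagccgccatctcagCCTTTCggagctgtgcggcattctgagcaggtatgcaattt
Snhg8, chr3:123508297-123508376, minus strand: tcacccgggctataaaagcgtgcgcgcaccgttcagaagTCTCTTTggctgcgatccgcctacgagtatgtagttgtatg
Snhg12, chr4:132308638-132308717, plus strand: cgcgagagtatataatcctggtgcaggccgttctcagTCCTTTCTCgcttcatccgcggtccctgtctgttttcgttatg
Snhg5, chr9:88522858-88522937, minus strand: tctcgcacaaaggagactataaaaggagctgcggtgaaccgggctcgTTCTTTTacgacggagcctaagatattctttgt
Snhg3, chr4:132353647-132353726, minus strand: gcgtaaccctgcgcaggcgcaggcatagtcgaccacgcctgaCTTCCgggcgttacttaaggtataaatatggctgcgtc

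The pyrimidine run was 9 bases long in Snhg1 and Snhg12, a length that 10.9% of the 32851 RefSeq promoters reached. It was 7 bases long in Snhg5 and Snhg8 (24.8% of promoters), 6 in Gas5 (38.1%) and 5 in Snhg3 (58.4%). A C at the start base followed by 4 pyrimidines, on the gene's strand, stood in Gas5 and Snhg8 and in 2.51% of all promoters. The letters TATA stood between 40 and 11 bases before the start of Gas5, Snhg1, Snhg5, Snhg8 and Snhg12, against 6.52% of all promoters. In Snhg3 the same letters were found 23 bases after the start. A second RefSeq start of Gas5 had a longest run of 3 and no such TATA. None of the 7 windows, from 250 bases before to 50 after the start, held the letters CACGTG, which 7.15% of promoters held, or a match to the P53 consensus decamer, which 8.36% of promoters held. These matches are letters in a window and no evidence of binding.

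Estimated depth ran from 5200000 to 13400000 fragments per library, with 15181 to 15792 symbols above 0, and the FPKM of the 7 genes corresponded to about 65 to 2100 fragments each. Trp53 was measured at 77.6 and 75.1 FPKM in WT serum, and at 16.8 and 3.68 once P53 was deleted there. In 2i it was at 26.8 and 33.7 FPKM in WT cells and at 7.25 and 1.88 in P53-/- cells. Its level was thus lower in every P53-/- library than in either WT library of the same culture, although Trp53 passed the test in 2i (adjusted p = 0.0547, limma) and not in serum (adjusted p = 0.15). Cdkn1a, the P53 target that codes for P21, fell by 2.24 on the log2 scale in 2i and fell by 2.18 in serum. All 8 ESC markers reached 1 FPKM, with summed levels of 3114 to 4289 FPKM. Of 6 feeder cell markers, 1 reached 1 FPKM in any library, and Col1a2, Col3a1, Postn and Lum never exceeded 0.5. The summed level of these 6 was 7.73 to 10.5 FPKM in the serum libraries and 0.761 to 1.34 in the 2i libraries. Their part in the differences between cultures was not tested. Primitive endoderm markers summed to 1.21 to 4.35 FPKM, mesoderm markers to 2.34 to 6.42 and neural markers to 17.8 to 35.2.

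All 7 genes were expressed strongly. Their mean FPKM over the 8 libraries was above that of 86.0% (Snhg12) to 98.1% (Snhg1) of the tested genes other than small RNAs. FPKM is a level per length of transcript, scaled to the depth of the library, so the genes can be ranked by it. In GENCODE M21, 20 of 25 Gas5 transcripts and 14 of 18 Snhg1 transcripts retain an intron, as do 3 of 6 for Snhg5 and 1 of 3 for Snhg8. For Snhg3, Snhg6 and Snhg12 the number is 0. How far intron reads enter these values was not tested. In WT serum ESCs the order was Gas5 with 174.8 ± 35.7 FPKM (mean ± SD, n = 2, as for all group means), Snhg1 with 168 ± 32.9, Snhg5 with 138 ± 1.37, Snhg8 with 128 ± 36.4, Snhg3 with 115 ± 23.8, Snhg6 with 85.7 ± 20.4 and Snhg12 with 47.7 ± 0.694. Neighbours in this order overlapped, except that both Snhg1 libraries lay above both Snhg5 libraries and that Snhg12 lay below all others. In WT 2i ESCs, Snhg1 stood first with 435 ± 70.4 FPKM, above both libraries of every other host gene. Gas5 (219 ± 58.7) and Snhg6 (213 ± 67.7) followed and overlapped, then came Snhg5 with 109 ± 8.36 and Snhg8 with 77.6 ± 8.75. Snhg12 (48.8 ± 12.7) and Snhg3 (38.2 ± 13.6) were lowest and overlapped. Snhg3 had therefore moved from the middle of the order in serum to its end in 2i, and Snhg6 from the lower part to the upper. In P53-/- ESCs, Snhg1 stood first in both cultures, with 211 ± 31.0 FPKM in serum and 386 ± 21.9 in 2i. Snhg12 was lowest there in serum (52.1 ± 9.67), and Snhg12 (37.4 ± 10.6) and Snhg3 (38.2 ± 15.1) overlapped at the end of the order in 2i.

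**Figure D1:**
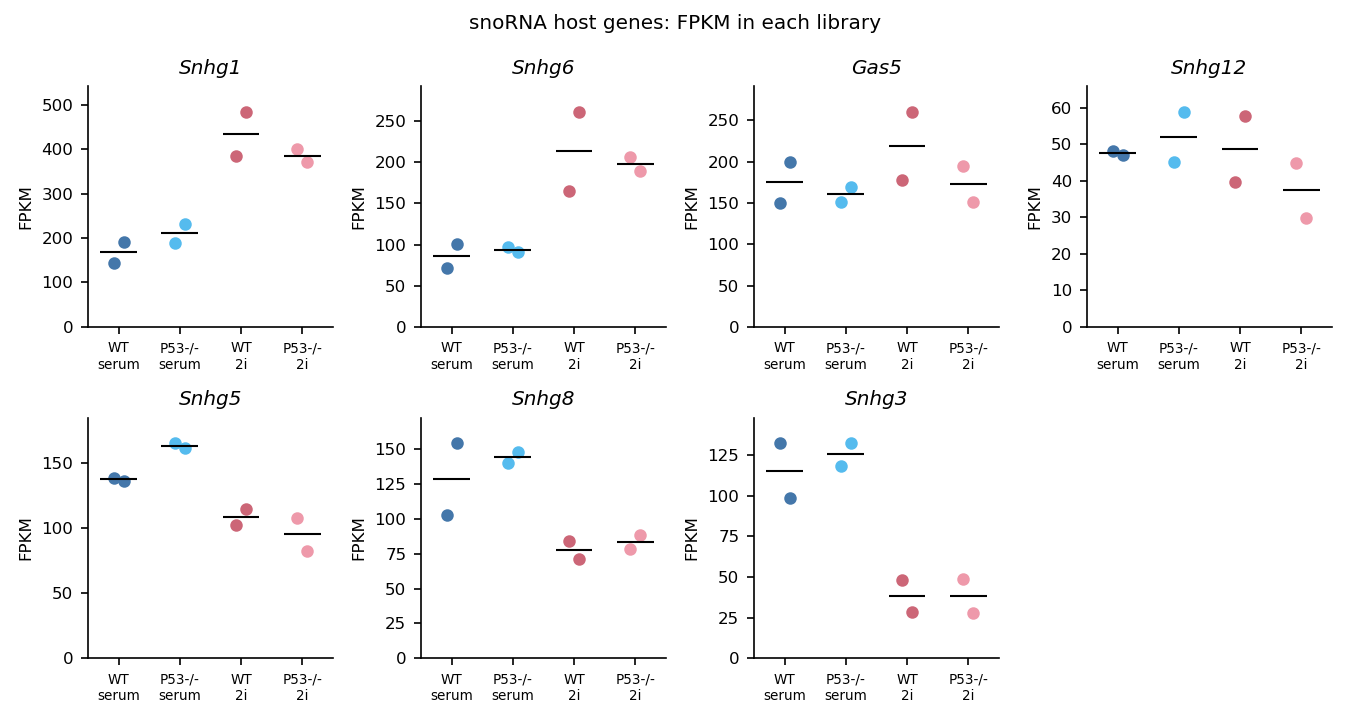
FPKM of each host gene (vertical axis, linear from 0) in the 8 libraries, by genotype and culture. Points are libraries and horizontal bars are means of 2. Snhg1 and Snhg6 lie higher in all 2i libraries, Snhg5, Snhg8 and Snhg3 lie lower, and within a culture WT and P53-/- overlap except for Snhg5 in serum.

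To ask whether the host genes depend on P53, P53-/- ESCs were compared with WT ESCs in each culture. None of the 7 genes was called in 2i, where 10.3% of the 12572 tested genes were called (limma, adjusted p below 0.1 with more than 1.5-fold change), 4.36% higher and 5.97% lower. None reached an unadjusted p of 0.05 either, against 25.2% of all tested genes. In serum 0 of 7 were called, against 1.02% of all genes, and again 0 of 7 had an unadjusted p under 0.05, against 11.3%. With 2 libraries per group an exact permutation test of 1 gene cannot give a two-sided p below 0.33, and the labels do not say that the libraries are separate cultures, so that p values measure the spread between libraries only. In the P53-/- groups this spread can hold a difference between the 2 clones, which was not tested.

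In 2i, Gas5 was measured at 177 and 260.3 FPKM in WT libraries and at 195 and 151 FPKM in P53-/- libraries. The groups overlapped, and the estimated log2 fold change was -0.33 ± 0.23 (SE, with a 95% interval of -0.86 to 0.21, adjusted p = 0.425, limma). It was -0.50 under quantile normalization and ran from -0.60 to -0.049 with 1 library left out at a time. In serum the Gas5 values were 149.6 and 200.03 FPKM in WT and 152 and 169 in P53-/-, with a log2 fold change of -0.11 ± 0.23.

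Snhg1 showed 385 and 485 FPKM in WT 2i against 402 and 371 in P53-/- 2i, which overlapped as well. Its log2 fold change was -0.16 ± 0.19 in 2i (adjusted p = 0.647, limma). In serum the values were 145 and 191 FPKM in WT and 189 and 233 in P53-/-, again with an overlap, and the log2 fold change was 0.34 ± 0.19 (adjusted p = 0.545, limma). This was the largest estimate among the 7 genes in serum with all libraries. Leaving out 1 library at a time gave 0.14 to 0.54. Without the first WT serum library Snhg1 was at 0.14 and Snhg3 at 0.35.

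With all libraries Snhg12 had the largest estimate in 2i. Leaving out 1 library at a time gave -0.68 to -0.095, so this rank depends on single libraries. Snhg12 stood at 39.8 and 57.8 FPKM in WT cells and at 44.9 and 29.9 in P53-/- cells, a log2 fold change of -0.39 ± 0.24 with a 95% interval of -0.95 to 0.18. Its serum values, 48.2 and 47.2 FPKM in WT against 45.3 and 59.0 in P53-/-, overlapped too.

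Snhg5 was the 1 gene with separate groups in a culture. In serum it gave 139 and 137 FPKM in WT and 165 and 162 in P53-/-, so that both P53-/- libraries lay above both WT libraries. Such separation in either direction was seen in 47.5% of all tested genes in serum, and the log2 fold change of 0.25 ± 0.15 was not called (adjusted p = 0.560, limma). In 2i the Snhg5 values were 103 and 115 FPKM for WT against 108 and 82.7 for P53-/-. No host gene had separate groups in 2i, where 53.6% of tested genes had.

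With all libraries Snhg3, Snhg6 and Snhg8 gave the estimates nearest to 0 in 2i. Leaving out 1 library at a time gave -0.42 to 0.40 for Snhg3 and -0.40 to 0.25 for Snhg6, so this order depends on single libraries. Snhg3 was at 47.8 and 28.6 FPKM in WT cells and at 48.8 and 27.5 in P53-/- cells, nearly the same pair of values in each genotype, and its log2 fold change was -0.01 ± 0.32. This wide error leaves a 95% interval from -0.75 to 0.73. Snhg6 was at 165 and 261 FPKM in WT cells against 206 and 189.6 in P53-/- cells, with a log2 fold change of -0.07 ± 0.24. For Snhg8 the values were 83.8 and 71.5 FPKM for WT against 78.2 and 88.7 for P53-/-, with a log2 fold change of 0.11 ± 0.20. In serum the log2 fold changes of these genes lay between 0.13 and 0.19.

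The median log2 fold change of the 7 genes was -0.16 in 2i and 0.15 in serum, beside 0.02 over all tested genes in either culture. The 2i median was -0.39 under quantile normalization and also without the first P53-/- 2i library, -0.33 without the first WT 2i library, -0.015 without the second P53-/- 2i library and -0.049 without the second WT 2i library. The serum median was 0.23 without the first P53-/- library and 0.24 without the second WT library. Whether the effect of P53 loss differed between cultures was tested by the interaction term. It was called for 0 of 7 genes, against 0.207% of all tested genes. Its estimates lay between -0.50 (Snhg12 and Snhg1) and -0.09 (Snhg8), and Snhg5 had the lowest p value (estimate -0.45 ± 0.21, adjusted p = 0.413, limma). All 7 estimates were below 0. The 7 genes share the same libraries: the second WT 2i library had the highest 2i value of Gas5, Snhg1, Snhg5, Snhg6 and Snhg12, and leaving it out left 5 of 7 estimates below 0, as did leaving out the first WT 2i or the first WT serum library. This library was also the shallowest, at 5200000 fragments, and the part of depth in these values was not tested.

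**Figure D2:**
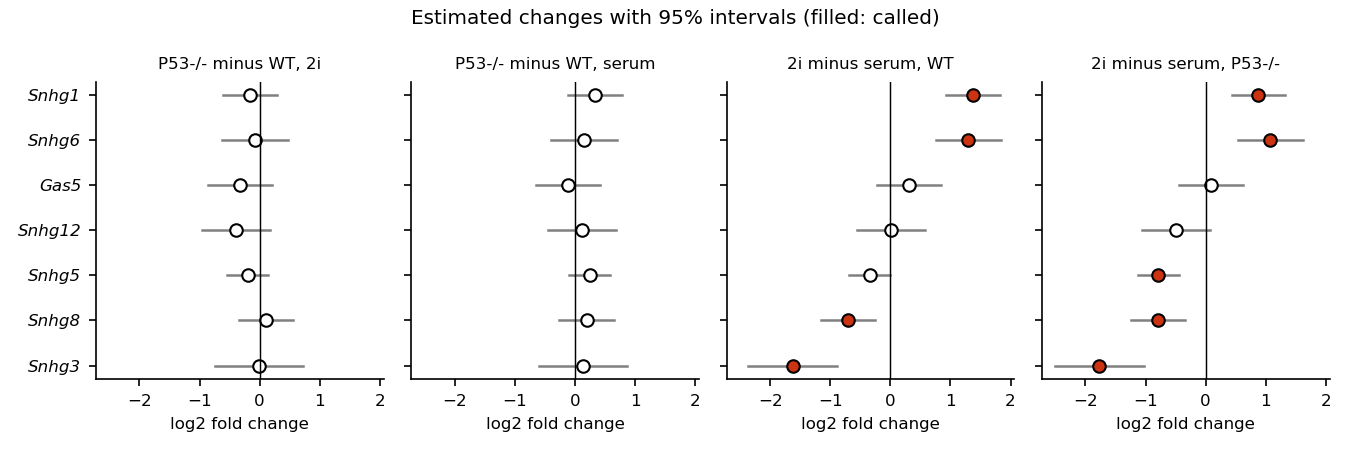
Log2 fold changes of the 7 host genes (horizontal axis) in 4 comparisons, with 95% intervals from limma. Filled points are those called (adjusted p below 0.1, more than 1.5-fold). All intervals for P53 loss include 0, while Snhg1, Snhg6, Snhg8 and Snhg3 are called between cultures in both genotypes.

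Culture conditions separated the host genes, and in opposite directions. In WT ESCs, Snhg1 and Snhg6 were higher in 2i than in serum and Snhg3 and Snhg8 were lower. In P53-/- ESCs these 4 genes changed the same way, and Snhg5 was lower as well. That is 4 of 7 genes called in WT and 5 of 7 in P53-/-, beside 55.7% and 58.2% of all tested genes, so the share of host genes that changed was near the background. Among all tested genes 27.2% were called higher and 28.6% lower in WT, and 28.0% and 30.1% in P53-/-. An unadjusted p under 0.05 was reached by 5 of 7 host genes in each genotype, beside 63.8% of all tested genes in WT and 66.0% in P53-/-. In these unfractionated RNA samples, fewer cells of a type and less RNA per cell cannot be told apart.

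Snhg1, which hosts Snord22 and Snord25 to Snord31, was measured at 145, 191, 189 and 233 FPKM in the serum libraries and at 385, 485, 402 and 371 in the 2i libraries (WT pair first). All 2i values exceeded all serum values. The fold change was 2.60 in WT (log2 1.38 ± 0.19, adjusted p = 0.000606, limma) and 1.84 in P53-/- (log2 0.88 ± 0.19, adjusted p = 0.00492, limma).

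Snhg6, the host of Snord87, followed the same pattern with 71.3, 100.1, 97.0 and 90.3 FPKM in serum against 165, 261, 206 and 189.6 in 2i. The groups did not overlap, and the level rose 2.46-fold in WT (log2 1.30 ± 0.24, adjusted p = 0.00219, limma) and 2.11-fold in P53-/- (log2 1.08 ± 0.24, adjusted p = 0.00494, limma).

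Snhg3, the host of Snora73a and Snora73b, moved the other way, from 132, 98.4, 118 and 132 FPKM in serum to 47.8, 28.6, 48.8 and 27.5 in 2i. Every 2i library was below every serum library, and the fold change of 3.08 in WT (log2 -1.62 ± 0.32, adjusted p = 0.00324, limma) and 3.40 in P53-/- (log2 -1.77 ± 0.32, adjusted p = 0.00197, limma) was the largest among the 7 genes. In either genotype the lower of the Snhg3 values in 2i came from the shallower library, at 5200000 and 5400000 fragments against 7800000 and 9700000, and the part of depth was not tested. Snhg3 overlaps the annotated span of Rcc1 on the same strand over 5592 bases, so reads could be split between these genes and the Snhg3 value is uncertain to that extent.

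Snhg8, the host of Snora24, gave 103, 154, 140 and 148 FPKM in serum and 83.8, 71.5, 78.2 and 88.7 in 2i, without overlap. It was 1.63-fold lower in WT 2i (log2 -0.70 ± 0.20, adjusted p = 0.0157, limma) and 1.73-fold lower in P53-/- 2i (log2 -0.79 ± 0.20, adjusted p = 0.00887, limma). The WT call was lost without the second WT serum library (log2 -0.41) and under quantile normalization (log2 -0.49).

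Snhg5, the host of Snord50a and Snord50b, also lay lower in all 2i libraries, with 139, 137, 165 and 162 FPKM in serum and 103, 115, 108 and 82.7 in 2i. It was called in P53-/- (log2 -0.79 ± 0.15, adjusted p = 0.00227, limma), whereas in WT the log2 fold change of -0.34 ± 0.15 stayed under the fold threshold. The WT estimate ran from -0.34 to -0.11 over the other settings and from -0.42 to -0.26 with 1 library left out at a time. The interaction given above does not show that the genotypes differed in this respect.

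Gas5 and Snhg12 were not called in either genotype with all libraries. In WT the log2 fold change of Gas5 was 0.59 without the first WT 2i library and 0.036 without the second. In P53-/- that of Snhg12 was -0.79 without the first P53-/- 2i library and -0.20 without the second. Gas5 ranged from 149.6 to 200.03 FPKM in serum and from 151 to 260.3 in 2i, and its log2 fold change was 0.31 ± 0.23 in WT and 0.10 ± 0.23 in P53-/- (adjusted p = 0.269 and 0.733, limma). The WT interval of -0.22 to 0.84 still admits a change as large as that of Snhg8. Snhg12 ranged from 45.3 to 59.0 FPKM in serum and from 29.9 to 57.8 in 2i, with log2 fold changes of 0.01 ± 0.24 and -0.49 ± 0.24 (adjusted p = 0.982 and 0.112, limma).

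Over the 8 libraries, 2 of the 7 genes were higher in every 2i library than in every serum library and 3 were lower in every one. Separation of this kind was seen in 60.8% of all tested genes, 28.8% higher and 32.0% lower in 2i. Snhg12 and Snhg3 are neighbours on chromosome 4. Snhg3 was lower in 2i in both genotypes, while Snhg12 was not called.

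The opposite changes left the total of the 7 genes at 787 to 993 FPKM in serum and 940 to 1279 in 2i, ranges that overlap, while its makeup differed. Snhg1 contributed 18.4% to 23.4% of the total in serum and 37.1% to 39.4% in 2i. Snhg6 contributed 9.06% to 10.8% and then 16.5% to 20.4%. The share of Snhg3 was 10.6% to 16.8% in serum and 2.23% to 4.77% in 2i, that of Snhg8 13.1% to 16.6% and 5.59% to 9.43%, and that of Snhg5 14.7% to 18.2% and 8.80% to 10.3%. The shares of Gas5 overlapped, at 16.7% to 21.6% in serum and 16.0% to 20.4% in 2i, while Snhg12 had 4.99% to 6.12% in serum and 3.18% to 4.52% in 2i, without overlap. Shares within a library do not depend on how that library was scaled. The ratio of Snhg1 to Snhg3, chosen after the values were seen, was 1.09 to 1.94 in serum and 8.06 to 17.0 in 2i, and the ratio of Snhg6 to Snhg8, chosen likewise, was 0.610 to 0.694 and 1.97 to 3.66.

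**Figure D3:**
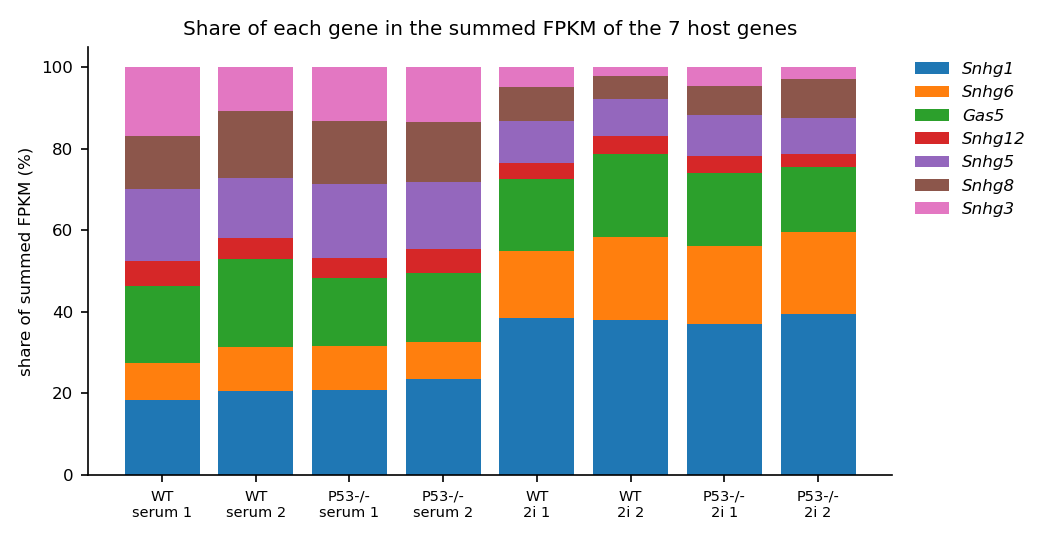
Share of each host gene in the summed FPKM of the 7 genes (vertical axis, percent) in each of the 8 libraries (horizontal axis). Snhg1 takes 18.4% to 23.4% in the serum libraries and 37.1% to 39.4% in the 2i libraries, and Snhg3 falls from at least 10.6% to at most 4.77%.

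The snoRNAs carried by the host genes were compared next. The sequences of 5 of them are given 5′ to 3′ as DNA letters from the GENCODE M21 transcripts, since their values are described below. Capitals mark the C box (TGATGA) and the D box (CTGA) of box C/D snoRNAs, where a script found these letters, and the ACA that stands 3 bases before the end of box H/ACA snoRNAs.
Snord22, in Snhg1, chr19:8725866-8725991, plus strand: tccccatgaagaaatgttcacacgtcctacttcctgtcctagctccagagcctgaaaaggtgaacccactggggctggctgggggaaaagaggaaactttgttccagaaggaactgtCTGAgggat
Snord87, in Snhg6, chr1:9942463-9942549, minus strand: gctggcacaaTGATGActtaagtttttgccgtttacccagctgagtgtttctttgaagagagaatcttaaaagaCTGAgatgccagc
Snord47, in Gas5, chr1:161038082-161038158, plus strand: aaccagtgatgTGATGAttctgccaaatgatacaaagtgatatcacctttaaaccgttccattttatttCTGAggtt
Snora24, in Snhg8, chr3:123507937-123508066, minus strand: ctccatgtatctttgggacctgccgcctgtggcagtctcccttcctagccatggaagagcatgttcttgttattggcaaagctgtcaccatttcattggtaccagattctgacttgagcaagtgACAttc
Snora61, in Snhg12, chr4:132310240-132310369, plus strand: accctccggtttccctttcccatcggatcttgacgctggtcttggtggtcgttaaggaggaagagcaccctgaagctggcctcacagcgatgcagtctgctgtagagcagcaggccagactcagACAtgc

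The FPKM of these RNAs cannot be set against those of their hosts. They are 77 to 130 bases long, and FPKM of so short RNAs depend strongly on the length by which the fragments are divided. Small RNA genes as a class took 96.0% to 97.9% of the summed FPKM in serum libraries and 85.5% to 87.0% in 2i libraries. Replicates also differed widely, and a value of 0 can be a failed estimate, so values are given per library.

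Snord22 was measured at 503434 and 1580000 FPKM in WT serum and at 280296 and 438648 in WT 2i. In P53-/- ESCs its level was 701205 and 776334 FPKM in serum and 175818 and 211707 in 2i. It lay lower in all 2i libraries, while its host Snhg1 lay higher in all of them. The Snord22 difference was not called in WT (log2 -1.35 ± 2.08, adjusted p = 0.598, limma) or in P53-/- (log2 -1.94 ± 2.08, adjusted p = 0.442, limma). For this error limma draws in part on other genes of similar level. The missing call therefore does not show that Snord22 was alike in the cultures.

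Snord87 gave 35266 and 175334 FPKM in WT serum and 3624 and 0 in WT 2i. In P53-/- ESCs it gave 111101 and 156265 FPKM in serum and 18672 and 28525 in 2i. Snord87 was called lower in WT (adjusted p = 0.0288, limma) and not in P53-/- (adjusted p = 0.596, limma). The difference between genotypes was not called (interaction, adjusted p = 0.503, limma). All 4 groups share 1 estimate of spread, so the WT 2i value listed at 0 widened the P53-/- error as well (SE 3.90). Both P53-/- 2i values lay below both P53-/- serum values, so the missing call does not set the genotypes apart. The host Snhg6 was higher in 2i in both genotypes.

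Snord47, from Gas5, gave 27508 and 99423 FPKM in WT serum and 2772 and 0 in WT 2i, against 141276 and 188581 in P53-/- serum and 44822 and 54738 in P53-/- 2i. It was called lower in WT 2i (adjusted p = 0.0292, limma), where Gas5 was not called, and it was not called in P53-/- (adjusted p = 0.713, limma). Here too the WT 2i value listed at 0 widened the P53-/- error (SE 3.78). Snora24 and its host Snhg8 were both lower in WT 2i: Snora24 gave 12373 and 51492 FPKM in WT serum and 7625 and 6118 in WT 2i (log2 -1.89 ± 0.67, adjusted p = 0.0405, limma). In P53-/- ESCs Snora24 gave 23047 and 34261 FPKM in serum and 12004 and 10857 in 2i and was not called (log2 -1.30 ± 0.67, adjusted p = 0.126), whereas Snhg8 was.

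Snhg12 holds several snoRNAs of the table, of which the tests called some. Snora16a gave 50854 and 190191 FPKM in WT serum against 23510 and 26514 in WT 2i, and 114787 and 145591 in P53-/- serum against 23391 and 18417 in P53-/- 2i. It was lower in 2i in WT (log2 -1.98 ± 0.83, adjusted p = 0.0719, limma) and in P53-/- (log2 -2.64 ± 0.83, adjusted p = 0.0247, limma). Snora44 and Snord99 were not called in either genotype. The error of Snord99 (SE 2.54), like that of Snord22, was drawn in part from other genes of similar level. Snora44 ranged from 15579 to 82162 FPKM in serum and from 15779 to 21265 in 2i, and Snord99 from 691549 to 3780000 in serum and from 204826 to 365721 in 2i. Snora61 was lower in P53-/- 2i than in P53-/- serum (log2 -1.30 ± 0.23, adjusted p = 0.00193, limma) and was listed at 0 in both WT 2i libraries, beside 6819 and 11030 FPKM in WT serum. The equal zeros add no spread to the error that all groups share, so the error of 0.23 may be too small.

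In all, 5 of 8 hosted snoRNAs were called lower in WT 2i and 2 of 8 in P53-/- 2i, and 0 were called higher, while 28.6% and 30.1% of all tested genes were called lower. Of the 5 calls in WT, 3 (Snora61, Snord87 and Snord47) rest on WT 2i libraries listed at 0, and the other 2 are Snora24 and Snora16a. The shared estimate of spread carries these zeros into the P53-/- tests too, so the counts of WT and P53-/- do not compare the genotypes. Of the 98 Snora and Snord genes tested, 41 were lower and 2 higher in WT, and 35 were lower and 1 higher in P53-/-. Upon loss of P53, 1 of the 8 was called in 2i (Snora61, higher) and 0 in serum. Of the 98 Snora and Snord genes 5 were called higher and 0 lower in 2i, and of all tested genes 10.3% were called. An unadjusted p under 0.05 was reached in 2i by 3 of the 8, namely Snora61, Snord47 and Snord87, the same 3 whose WT 2i libraries include values listed at 0, and in serum by 0 of the 8, against 25.2% and 11.3% of all tested genes.

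**Figure D4:**
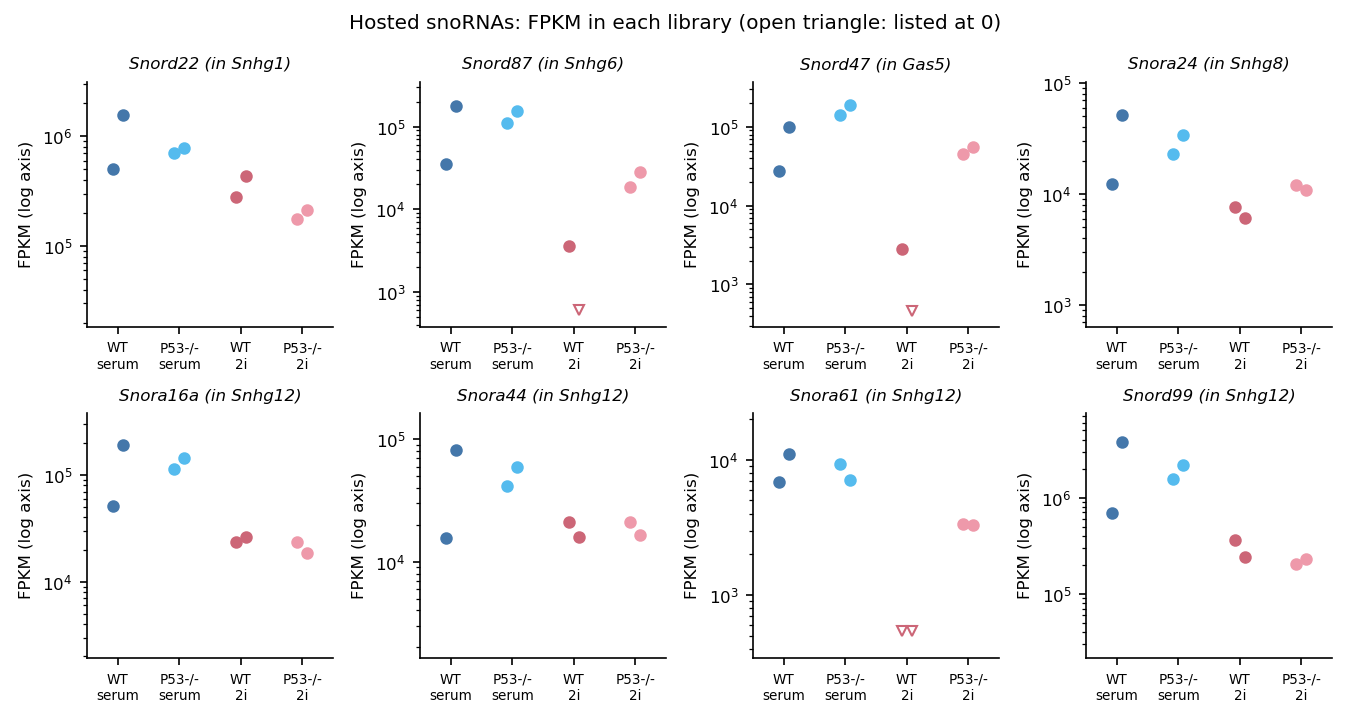
FPKM of the 8 hosted snoRNAs on a log axis, by genotype and culture, with the host gene in each title. Points are libraries, and open triangles near the lower edge mark a library listed at 0. Snord22, Snord87, Snora24, Snora16a, Snora61 and Snord99 lie lower in all 2i libraries than in all serum libraries.

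Neighbouring genes were read alongside the hosts. Slc3a2, the heavy chain of amino acid transporters, starts 106 bases from Snhg1 on the opposite strand. It ranged from 73.7 to 85.2 FPKM in serum and from 76.1 to 90.3 in 2i and was not called in either genotype (log2 -0.07 ± 0.12 and 0.13 ± 0.12), while Snhg1 was higher in 2i. Zbtb37, a zinc finger gene that overlaps Gas5 by 428 bases on the opposite strand, was lower in 2i in WT (log2 -1.80 ± 0.25) and P53-/- (log2 -1.62 ± 0.25), with 5.73 to 6.97 FPKM in serum and 1.39 to 2.51 in 2i. Rcc1, the exchange factor of the GTPase Ran, shares its strand with Snhg3. It was lower in WT 2i (log2 -0.85 ± 0.13, adjusted p = 0.00113, limma), and in P53-/- its log2 fold change of -0.41 ± 0.13 stayed under the fold threshold. Mcmdc2, which overlaps Snhg6 by 127 bases on the opposite strand, was low, at 0.0891 to 1.05 FPKM, and was called higher in WT 2i (log2 1.43 ± 0.62, adjusted p = 0.0792, limma), where Snhg6 was higher too. In P53-/- it was not called (log2 0.25 ± 0.62). Libraries were made with a stranded kit, but whether the counting used strand is not given in the sources used here.

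The other genes of snoRNA production were described from lists. Of 15 tested genes listed as further non-coding hosts, 1 was called upon loss of P53 in 2i and 0 in serum, beside 10.3% and 1.02% of all tested genes. Whether each of the 15, Meg3 and Mirg among them, holds an annotated snoRNA was not checked. An unadjusted p under 0.05 was reached by 3 of the 15 in 2i and 0 in serum, against 25.2% and 11.3% of all tested genes, and their log2 fold changes had a median of -0.41 for 2i ESCs and 0.08 for serum ESCs. The gene called was Snhg11, which fell by 1.11 on the log2 scale (SE 0.26, adjusted p = 0.0450, limma), from 1.22 and 1.39 FPKM in WT 2i to 0.617 and 0.488 in P53-/- 2i. Between cultures, 5 of the 15 were higher and 5 lower in WT 2i, and 3 were higher and 8 lower in P53-/- 2i, beside 27.2% higher and 28.6% lower over all tested genes in WT and 28.0% and 30.1% in P53-/-. Zfas1 and Snhg20, named after their values were seen, were higher in 2i in both genotypes (log2 1.53 ± 0.24 and 1.45 ± 0.23 in WT), as Snhg1 and Snhg6 were. Meg3 and Rian, of the imprinted Dlk1-Dio3 locus and named likewise, were lower (log2 -2.25 ± 0.34 and -1.67 ± 0.35 in WT), as Snhg3 and Snhg8 were. Mirg, of the same locus, was not called in WT (log2 -0.37 ± 0.28) and was lower in P53-/- 2i (log2 -0.70 ± 0.28).

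Of 47 genes listed as protein-coding hosts, 43 hold an annotated snoRNA on their strand in GENCODE M21, and Npm1, Hsp90ab1, Nfs1 and Cnbp do not. Upon loss of P53, 1 of the 47 was called in 2i and 0 in serum, and an unadjusted p under 0.05 was reached by 5 and 6. Over all tested genes the shares called were 10.3% and 1.02%, and those with such a p were 25.2% and 11.3%. Cct6a, a subunit of the CCT chaperonin, rose from 361 and 368 FPKM in WT 2i to 524 and 589 in P53-/- 2i (log2 0.61 ± 0.14, adjusted p = 0.0470, limma). Between cultures 17 were higher and 13 lower in WT 2i, while 15 were higher and 12 lower in P53-/- 2i, beside 27.2% higher and 28.6% lower over all tested genes in WT and 28.0% and 30.1% in P53-/-. Among the 43 with an annotated snoRNA, 16 were higher and 11 lower in WT 2i, and 14 were higher and 10 lower in P53-/- 2i.

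Among 20 proteins of the snoRNP core and its assembly, 0 were called upon loss of P53 in either culture, beside 10.3% of all tested genes in 2i and 1.02% in serum. An unadjusted p under 0.05 was found for 1 in 2i and 2 in serum, against 25.2% and 11.3% of all tested genes. The largest estimates were those of Gar1, an H/ACA core protein (log2 0.52 ± 0.14 in 2i, adjusted p = 0.0665, under the fold threshold), and of Nop10, another one (log2 0.46 ± 0.15 in serum, adjusted p = 0.302, limma). In 2i against serum, 9 of 20 were lower and 1 higher in WT, and 8 were lower and 1 higher in P53-/-. Over all tested genes 28.6% were lower and 27.2% higher in WT, and 30.1% and 28.0% in P53-/-. The medians were -0.32 and -0.23, beside -0.02 and -0.03 over all tested genes.

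NMD factors, which act on the spliced RNAs of many host genes, were not called upon loss of P53 either (0 of 20 in each culture, beside 10.3% and 1.02% of all tested genes). An unadjusted p under 0.05 was found for 4 of 20 in 2i and 3 of 20 in serum, against 25.2% and 11.3% of all tested genes. The largest estimates in 2i were -0.48 ± 0.20 for Smg9 and -0.46 ± 0.15 for Dcp1a on the log2 scale (adjusted p = 0.183 and 0.110, limma). Between cultures 12 of 20 were lower and 1 higher in WT 2i, and 12 were lower and 3 higher in P53-/- 2i, beside 28.6% lower and 27.2% higher over all tested genes in WT and 30.1% and 28.0% in P53-/-. Their median log2 fold change was -0.94 in WT and -1.09 in P53-/-.

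**Figure D5:**
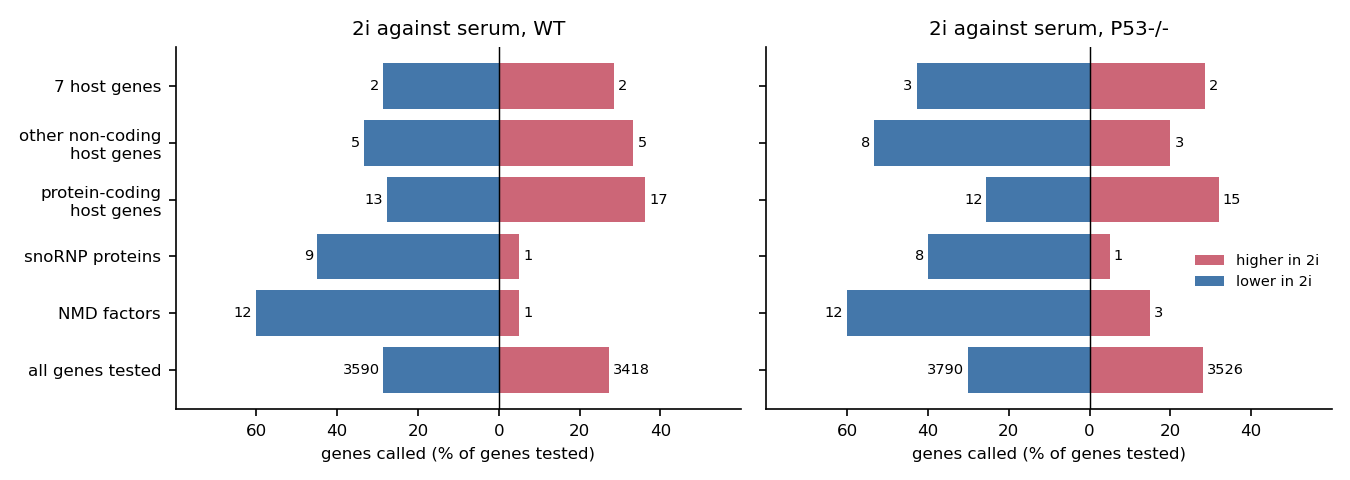
Genes called higher (right) and lower (left) in 2i against serum, as a percentage of the genes tested in each list (horizontal axis), with the number called beside each bar. The 7 host genes split 2 higher and 2 lower in WT and 2 and 3 in P53-/-, near the split of all tested genes, while 12 of the 20 NMD factors were lower in each genotype.

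The genes whose pattern over the 8 libraries was most like the mean scaled profile of the 7 genes were Lyrm4 (Pearson's r = 0.934), Pnkd (0.919), Slc1a5 (0.900), Rpl38 (0.863), Dtwd2 (0.859), Ppil3 (0.853), Nif3l1 (0.846) and Acbd6 (0.836), out of 8129 genes that averaged 5 FPKM or more. Since the host genes moved in opposite directions between cultures, their mean profile does not show the change of any single host gene, and the list is a description only. The profile was lowest in the second P53-/- 2i library (-0.71) and highest in the second P53-/- serum library and the second WT 2i library (both 0.43), so it follows no group.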

How the data were processed

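RNA of G1-sorted ESCs was depleted of ribosomal RNA, reverse transcribed with random primers and made into stranded libraries. FPKM values were deposited by the authors in a single table of 24881 symbols and 8 columns. The submitters' processing notes name STAR, Cufflinks, DESeq2 and the mm9 build, without versions or roles. Columns name genotype and culture only, so libraries were numbered by column order, and 4 samples have no column. The 7 genes, the lists and the naming rule were chosen with earlier results of these data known. The rule named all 7 genes, the list members called upon loss of P53 (or else the 2 with the largest estimates) and the 8 most alike genes.

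Tests used limma 3.58.1 (R 4.3.3) on log2(FPKM + 0.1) for the 12572 symbols with a mean FPKM of at least 0.5, in 1 fit of 4 groups with a trended eBayes and Benjamini-Hochberg adjustment over all of them. A fold change is on the log2(FPKM + 0.1) scale and understates changes of low genes. No count model was used, since FPKM are not counts. Fragments were estimated from the smallest steps of FPKM, up to a factor common to all libraries. Positions and sequences come from GENCODE M21 and RefSeq on GRCm38, matched by symbol. FPKM values and fits do not depend on them, while gene types, the hosted snoRNAs, promoter percentages and the depth estimate do. The fit was tested on simulated data. Alternatives were other pseudocounts, filters, scalings, variance models and thresholds, and each library left out.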

Additional observations from a re-analysis of the deposited data

Results flagged for a closer look

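Snora61, an H/ACA snoRNA of Snhg12, drew attention because the interaction of P53 loss and culture was called for it (adjusted p = 1.2e-06, limma). It was listed at 0 in both WT 2i libraries and at 3325 and 3292 FPKM in the P53-/- 2i libraries, a mean of 3308 FPKM. In serum it was at 6819 and 11030 FPKM in WT and at 9327 and 7130 in P53-/-, where the log2 fold change was -0.09 ± 0.23. No fold change is given against a group listed at 0, and such a value can be a failed estimate for so short an RNA. The p value likewise rests on the 0.1 added to each FPKM, and equal zeros add no spread to the error. It therefore does not show by itself that the effect of P53 loss differed between cultures. Snhg12, the host of Snora61, was not called in any comparison. Whether the zeros reflect absence of the RNA was not tested.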

How the results depend on the processing

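No paired analysis was possible because the columns carry no replicate number. The 18 alternatives (17 for the interaction, which needs all groups) kept the count of called host genes at 0 for P53 loss in 2i, in serum and for the interaction, at 3 to 5 for 2i against serum in WT and at 5 to 6 in P53-/-. Leaving out 1 library at a time, where the lone library was assumed to vary like the other groups, moved the median log2 fold change of the 7 genes between -0.39 and -0.02 for P53 loss in 2i, 0.13 and 0.24 in serum, -0.56 and -0.18 for the interaction, -0.26 and 0.28 for culture in WT, and -0.70 and -0.20 for culture in P53-/-. The calls of Snhg1, Snhg3 and Snhg6 in both genotypes, and of Snhg5 and Snhg8 in P53-/-, held in all alternatives.

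Uncalled estimates near 0 changed sign in single leave-one-out fits. For P53 loss in 2i the ranges were -0.42 to 0.40 (Snhg3), -0.33 to 0.0021 (Snhg1), -0.40 to 0.25 (Snhg6) and -0.00995 to 0.22 (Snhg8), and quantile normalization gave Snhg8 -0.063. In serum they were -0.075 to 0.31 (Snhg12), -0.10 to 0.39 (Snhg6), -0.10 to 0.49 (Snhg8), -0.32 to 0.10 (Gas5) and -0.079 to 0.35 (Snhg3). For the interaction they were -0.38 to 0.20 (Snhg8), -0.56 to 0.27 (Snhg3), -0.49 to 0.061 (Gas5) and -0.55 to 0.11 (Snhg6). For culture they were -0.26 to 0.28 (Snhg12 in WT) and -0.089 to 0.28 (Gas5 in P53-/-). Snhg8 in WT lost its call under quantile normalization (-0.49) and without the second WT serum library (-0.41). Gas5 was called in WT without the first WT 2i library (0.59), and Snhg12 in P53-/- without the first P53-/- 2i library (-0.79). The cause was not tested. With 2 libraries per group, the 95% intervals for P53 loss reached from -0.95 to 0.73 in 2i and from -0.64 to 0.87 in serum over the 7 genes, so effects within these bounds remain possible.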
